A study of Saccharomyces cerevisiae with 6 samples.

Results

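Genes of Saccharomyces cerevisiae that carry acetaldehyde on to acetyl-CoA were followed in fermenting wine yeast: the aldehyde dehydrogenase genes ALD2, ALD3, ALD4, ALD5 and ALD6, and the acetyl-CoA synthetase genes ACS1 and ACS2. They were chosen by name from the deposited table, which held 6611 rows, and all 7 members were found. The data are 6 RNA sequencing libraries from 4 wine strains growing in MS300, a synthetic medium made like white grape must, at 25 °C, each taken in mid exponential phase when 6 g/l of CO2 had been given off. VL3 and AWRI796, labelled as enological strains, were each sampled without SO2 (0 mg/l) and with 25 mg/l of total SO2. EC1118, also enological, and R008, a wild type vineyard strain, were sampled with 25 mg/l of SO2 alone. Cultures of these strains lacking SO2 were not analysed here. Each combination of strain and SO2 has 1 library, so no level has a replicate and the order of neighbouring levels cannot be set against a spread.

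Fermenting yeast splits pyruvate to acetaldehyde, most of which is reduced to ethanol. Aldehyde dehydrogenases oxidise a smaller part to acetate, and acetyl-CoA synthetases join acetate to coenzyme A, a route known as the pyruvate dehydrogenase bypass that feeds lipid synthesis in the cytosol and histone acetylation. SO2 forms an adduct with acetaldehyde, which places this branch at the point where the preservative meets central metabolism. ALD6 encodes the cytosolic, magnesium-activated enzyme that prefers NADP+ and is the main source of acetate in fermentation. ALD4 and ALD5 encode the potassium-activated mitochondrial enzymes. ALD2 and ALD3, a tandem pair, encode cytosolic NAD+-dependent enzymes that also serve beta-alanine synthesis and are known to be induced by stress and repressed by glucose. ACS2 is the synthetase needed for growth on glucose, and ACS1 is the form used on non-fermentable carbon sources.

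All 7 coding sequences are unspliced and none overlapped another gene of the table. Positions are those of the table and equal those of the R64 reference. ALD3 (YMR169C) lies on chromosome 13 from 599352 to 600872 and ALD2 (YMR170C) beside it from 601562 to 603082, both on the minus strand. ALD6 (YPL061W) lies on chromosome 16 from 432588 to 434090, ALD4 (YOR374W) on chromosome 15 from 1039840 to 1041399 and ALD5 (YER073W) on chromosome 5 from 304030 to 305592, all on the plus strand. ACS1 (YAL054C) lies on chromosome 1 from 42881 to 45022 and ACS2 (YLR153C) on chromosome 12 from 445524 to 447575, both on the minus strand.

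ALD2 and ALD3 are close copies, which bears on what their values mean. Their coding sequences have the same length of 1521 bases and are 91.8% identical, with 125 differing bases. The other pairs of aldehyde dehydrogenases share between 52.8% and 63.5% of bases, and ACS1 and ACS2 share 59.6%. The first 329 bases of ALD2 and ALD3 do not differ at all. Of the 1472 windows of 50 bases in each gene, 594 (40.4%) occur exactly in the other. No such window of the other 5 members occurs elsewhere in the genome. Compared position by position, 838 windows (56.9%) of the pair hold at most 2 differences, and how many an aligned read could hold is not given. How reads shared by both genes were assigned is not given in the sources used here, so the split of signal between ALD2 and ALD3 is uncertain. The sequences compared are those of the R64 reference, and those of the wine strains were not examined. The stretch of 80 bases in which they differ most, bases 341 to 420 of each coding sequence, shows what can tell them apart, with the 26 differing bases in capitals (RefSeq R64, minus strand, chr13:602663-602742 for ALD2 and chr13:600453-600532 for ALD3).
ALD2: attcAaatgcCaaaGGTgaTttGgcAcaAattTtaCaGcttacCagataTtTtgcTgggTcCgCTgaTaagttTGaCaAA
ALD3: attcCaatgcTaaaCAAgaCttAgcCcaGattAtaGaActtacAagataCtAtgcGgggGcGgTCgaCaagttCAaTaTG

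**Figure D1:**
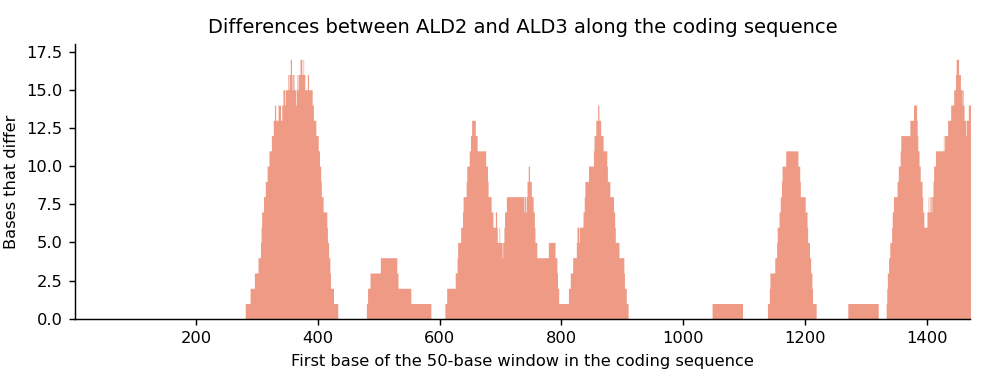
Number of bases that differ between ALD2 and ALD3 in each window of 50 bases, by the first base of the window in the coding sequence. The front of the genes is flat at 0, and the most divergent window holds 17 differences.

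Promoters are shown for the 4 aldehyde dehydrogenase genes that stood furthest apart between the AWRI796 cultures and for ACS1, which was near 0 in VL3. Each runs from 250 bases before the coding start to 50 bases after it, 5′ to 3′ on the coding strand, from RefSeq R64. Capitals mark 3 motifs searched on both strands: AGGGG (the stress response element), TTGGNG (the core bound by Adr1, an activator of genes for ethanol use) and CCAAT (bound by the Hap complex). Among 6001 promoters of this length, AGGGG was present in 21.6%, TTGGNG in 34.1% and CCAAT in 43.3%. Positions are chr13:600823-601122 for ALD3, chr15:1039590-1039889 for ALD4, chr16:432338-432637 for ALD6, chr13:603033-603332 for ALD2 and chr1:44973-45272 for ACS1.
ALD3: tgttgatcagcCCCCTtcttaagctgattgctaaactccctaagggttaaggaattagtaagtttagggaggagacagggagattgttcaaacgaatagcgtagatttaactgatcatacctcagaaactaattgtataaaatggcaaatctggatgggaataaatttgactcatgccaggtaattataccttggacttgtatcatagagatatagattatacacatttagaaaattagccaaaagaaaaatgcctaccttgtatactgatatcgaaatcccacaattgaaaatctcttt
ALD4: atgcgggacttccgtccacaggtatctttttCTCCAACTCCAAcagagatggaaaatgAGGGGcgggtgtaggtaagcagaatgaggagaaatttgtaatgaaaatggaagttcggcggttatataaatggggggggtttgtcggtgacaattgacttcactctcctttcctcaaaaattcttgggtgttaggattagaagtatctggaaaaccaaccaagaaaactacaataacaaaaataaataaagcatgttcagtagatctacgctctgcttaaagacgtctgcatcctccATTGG
ALD6: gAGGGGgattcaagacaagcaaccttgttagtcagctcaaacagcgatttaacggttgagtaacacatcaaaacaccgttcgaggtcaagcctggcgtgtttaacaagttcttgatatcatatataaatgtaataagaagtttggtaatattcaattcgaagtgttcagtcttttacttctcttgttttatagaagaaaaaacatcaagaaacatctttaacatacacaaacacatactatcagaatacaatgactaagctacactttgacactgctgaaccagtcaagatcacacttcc
ALD2: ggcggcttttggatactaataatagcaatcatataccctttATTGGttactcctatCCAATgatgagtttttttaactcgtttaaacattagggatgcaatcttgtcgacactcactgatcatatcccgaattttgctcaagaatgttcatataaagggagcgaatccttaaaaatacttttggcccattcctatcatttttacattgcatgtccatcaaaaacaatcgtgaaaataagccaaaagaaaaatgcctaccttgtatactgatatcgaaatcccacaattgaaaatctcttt
ACS1: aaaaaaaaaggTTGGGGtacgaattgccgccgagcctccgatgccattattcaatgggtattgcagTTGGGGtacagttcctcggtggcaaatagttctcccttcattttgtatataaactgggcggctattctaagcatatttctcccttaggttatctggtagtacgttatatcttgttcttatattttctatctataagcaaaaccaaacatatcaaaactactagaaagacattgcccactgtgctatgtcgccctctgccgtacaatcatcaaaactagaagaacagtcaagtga

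AGGGG or its complement CCCCT occurred once in each of ALD3, ALD4 and ALD6, the first base lying 239, 192 and 249 bases before the start. The TTGGNG core occurred 2 times in ALD4, where the matches adjoin, and 2 times in ACS1, where they do not. CCAAT or its complement occurred 2 times upstream of ALD2, and 1 time in ALD4 within the coding sequence. None of the 3 motifs was found in the window of ALD5 or ACS2. These are matches of letters in the R64 reference and not shown binding sites, and the promoters of the wine strains were not examined.

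Levels are given as scaled RPKM, that is RPKM (reads scaled to gene length and to the size of the library) divided by 1 factor per library, so levels of different genes can be set side by side. The scaling factors lay between 0.88 and 1.153 and the deposited RPKM summed to between 778152 and 1070980 per library. The depth in reads is unknown. Fold changes and log2 differences are on the log2(scaled RPKM + 1) scale, which understates differences at low levels. ACS2 was the most abundant member in every library, between 902 in EC1118 and 1715 in VL3 with SO2. ACS1 was the least abundant in every library.

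**Figure D2:**
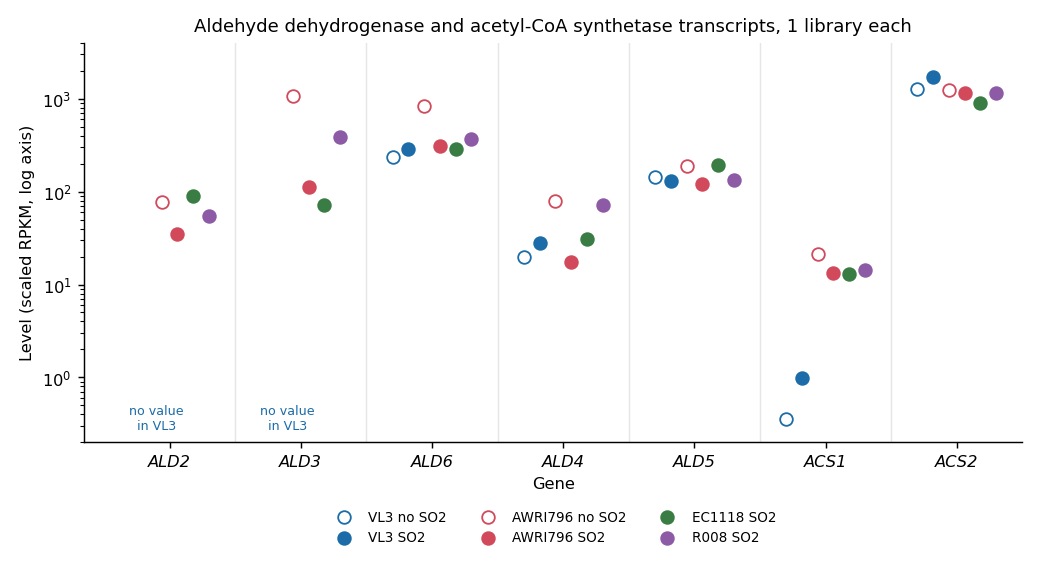
Level of each gene in each library as scaled RPKM on a log axis, with open circles for cultures without SO2 and filled circles for those with SO2, 1 library each. AWRI796 without SO2 is the highest point for ALD3, ALD6, ALD4 and ACS1, and both VL3 points for ACS1 lie under 1.

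The SO2 comparison within a strain asks how the branch stands when the culture holds the preservative. In AWRI796 all 5 aldehyde dehydrogenase genes stood at least 1.5-fold lower with SO2 than without, and so did ACS1, which makes 6 of the 7 members. Of all 5158 genes compared in AWRI796, 15.4% reached that size downward and 17.6% upward. In VL3 none of the 5 measured members reached 1.5-fold in either direction, against 10.7% of genes higher and 9.86% lower. Neither comparison has a replicate check, and ALD2 and ALD3, which may share reads, are not 2 independent members of the AWRI796 count.

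ALD3, one of the pair of stress-induced cytosolic genes, showed the widest difference in AWRI796. Its level was 1059 without SO2 and 111 with it, while EC1118 with SO2 was at 71.5 and R008 with SO2 at 389. The culture without SO2 was thus the high one, and the level with SO2 lay between those of the other strains given SO2. The difference was 9.45-fold, a log2 change of -3.24, the tenth lowest of the 5158 genes. ALD2 was at 78.1 without SO2 and 35.1 with SO2 in AWRI796, a 2.19-fold difference, and at 55.1 in R008 and 89.95 in EC1118. Its 4 values spanned 2.56-fold and those of ALD3 14.8-fold. The ratio of ALD3 to ALD2 was 13.6 in AWRI796 without SO2, 3.17 in AWRI796 with SO2, 7.05 in R008 and 0.795 in EC1118. EC1118 was thus the one library with less ALD3 than ALD2. How reads shared by the pair were assigned is not given, so the levels and differences of both genes, and their ratio, are uncertain.

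Neither ALD2 nor ALD3 had a value in the 2 VL3 libraries. A missing value differs from a 0 and gives no level. Of 6103 genes with a value in the 4 libraries of the other strains, 67 (1.1%) had none in VL3. The genes on both sides of the pair did have values there: CEP3 stood at 29.6 and 34.7 in VL3 without and with SO2, and EAR1 at 43.3 and 37.0. Farther along, DDR48, a stress gene, had no value in VL3 or in AWRI796, though it stood at 788 in R008 and 1193 in EC1118. The sources used here give no gene models for each strain, and whether VL3 carries the pair was not tested. The fits over several strains below therefore leave out ALD2 and ALD3.

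ALD6, the main cytosolic acetate-forming gene, was at 831 without SO2 and 311 with SO2 in AWRI796. In VL3 it was at 236 without SO2 and 287 with SO2, and with SO2 it stood at 286 in EC1118 and 364 in R008. The other 5 libraries thus lay close together, from 236 to 364, and AWRI796 without SO2 stood alone above them. The difference in AWRI796 was 2.66-fold (log2 change -1.41), and that in VL3 was 1.21-fold the other way (0.28).

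ALD4, the mitochondrial gene known to be glucose repressed, was at 79.5 without SO2 and 17.3 with SO2 in AWRI796. In VL3 it was at 19.7 without SO2 and 27.7 with SO2, and with SO2 it stood at 31.1 in EC1118 and 71.5 in R008. AWRI796 accordingly held both the highest and the lowest of the 6 values, and R008 came close to the highest. The AWRI796 difference was 4.4-fold (log2 change -2.14), and 0.989% of genes in AWRI796 were as low or lower. In VL3 ALD4 was 1.39-fold higher with SO2.

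ALD5, the mitochondrial gene expressed under most conditions, had the narrowest span of the dehydrogenases, 1.6-fold. Its AWRI796 levels were 189 without SO2 and 119.6 with it, and those in VL3 145 and 129. EC1118 was highest at 192 and R008 was at 133. The AWRI796 difference of 1.57-fold was just past 1.5-fold, and in VL3 the difference was 1.12-fold in the same direction, a sign that turned to 0.01 without the scaling factors.

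The synthetases differed from each other. ACS2, which serves growth on glucose, was at 1242 without SO2 and 1149.7 with SO2 in AWRI796, a 1.08-fold difference. In VL3 the levels were 1267 and 1715, a 1.35-fold difference, and VL3 with SO2 was its highest library. R008 had 1162 and EC1118 had 902. ACS1 was at 21.1 without SO2 and 13.2 with SO2 in AWRI796 (1.56-fold lower), 14.4 in R008 and 13.1 in EC1118. The VL3 levels were 0.359 without SO2 and 0.986 with it, far below the other 4 libraries. The VL3 difference of ACS1 was 1.46-fold at a pseudocount of 1 and 2.74-fold as a plain ratio, and at such low levels it has little meaning.

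The make-up of the dehydrogenase pool differed between libraries. Summed over the 5 genes, the level was 2236 in AWRI796 without SO2, 595 with SO2, 670 in EC1118 and 1011 in R008. ALD3 supplied 47.3% of that sum in AWRI796 without SO2 and 18.7% with SO2, 38.4% in R008 and 10.7% in EC1118. ALD6 supplied 37.2%, 52.4%, 36.0% and 42.6% in the same order of libraries. The share of ALD3 depends on how reads that it has in common with ALD2 were assigned, which is not given. Over ALD6, ALD4 and ALD5 alone, which have values in all 6 libraries, the sum reached 1099 in the AWRI796 culture lacking SO2, and the other 5 libraries ran from 401 to 568. ACS1 made up 1.13% to 1.67% of the 2 synthetases outside VL3, and 0.028% and 0.057% in VL3. ACS2 stood 3.16 to 5.98 times above ALD6 in 5 libraries and 1.49 times above it in AWRI796 without SO2.

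**Figure D3:**
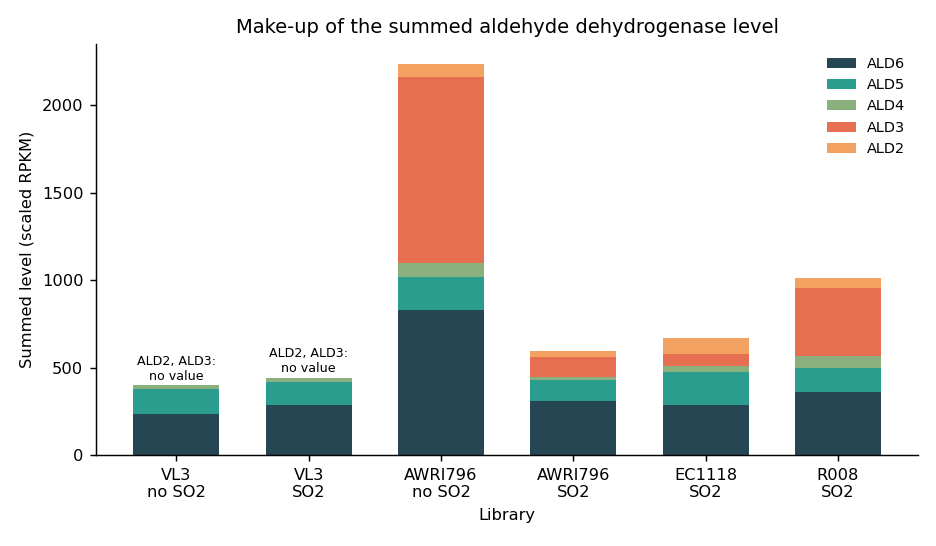
Summed level of the aldehyde dehydrogenase genes in each library, stacked by gene, in scaled RPKM. The bar of AWRI796 without SO2 reaches 2236 with ALD3 as its largest part, and the VL3 bars hold only ALD6, ALD5 and ALD4, since ALD2 and ALD3 have no value there.

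AWRI796 without SO2 was the highest of the 6 libraries for ALD6, ALD4 and ACS1, 3 of the 5 members with values throughout, as were 20.6% of 5009 genes. Among the 4 libraries outside VL3 it was the highest for ALD3, as for 30.5% of genes, and not for ALD2. Genes of general stress were also followed, leaving out ALD2 and ALD3, which the list of 19 holds; this was done after the values were seen. Over the 16 others with a value in every library, the median was 8.34 on the log2 scale both in AWRI796 without SO2 and in R008, and 7.01 to 7.82 in the other 4 libraries. In AWRI796 10 of the 17 others were at least 1.5-fold lower with SO2 and 2 higher, at a median log2 change of -0.996. In VL3 1 of 17 was lower and 6 were higher, at a median of 0.4. With ALD2 and ALD3, 12 of 19 were lower in AWRI796, at a median of -1.08. The small heat shock genes HSP26 and HSP12 stood at 6372 and 12049 in AWRI796 without SO2 and at 996 and 2599.6 with SO2. DDR2 was 4.85-fold lower, and GRE1, a desiccation gene, 3.95-fold higher. Of 15 stationary phase markers, 7 were at least 1.5-fold lower in AWRI796 and 3 higher, while in VL3 3 were lower and 4 higher. Their median log2 level in AWRI796 was 6.73 without SO2 and 6.7 with it, against 5.49 to 6.36 in the other libraries. HSP12, HSP26, SSA3, GRE1 and CTT1 are on both lists, so the counts of the lists are not independent. The part of growth state or stress in the differences of the members was not tested.

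Across VL3 and AWRI796 together, limma (strain as a block, 1 residual degree of freedom) asked whether any member moved alike with SO2 in both strains. None of the 5 fitted members was called, and of 5092 genes 0 (0.0%) were called, while 375 (7.36%) had an unadjusted p under 0.05, none of them a member. The mean log2 change was -0.83 ± 0.56 for ALD4 (SE, limma adjusted p = 0.80), -0.57 ± 0.46 for ALD6 (adjusted p = 0.85) and -0.41 ± 0.31 for ALD5 (adjusted p = 0.84). It was 0.16 ± 0.44 for ACS2 (limma adjusted p = 0.96) and -0.05 ± 0.51 for ACS1 (adjusted p = 0.99). The labels do not call the strains replicates, and these SEs are largely pooled over all genes, so they say little about the spread of 1 gene.

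ALD6, ALD4, ACS1 and ACS2, 4 of 5 members, had a positive SO2 change in VL3 and a negative one in AWRI796, although that of ACS1 in VL3 was -0.18 with quantile normalization. Opposite signs were found for 46.0% of 5092 genes. A change above 0 in VL3 with one at least 1.5-fold lower in AWRI796 was seen for ALD6, ALD4 and ACS1, and for 6.13% of genes. The AWRI796 change minus the VL3 change was -2.61 for ALD4, -1.69 for ALD6, -1.19 for ACS1, -0.55 for ACS2 and -0.49 for ALD5 on the log2 scale. The first 3 were at least 1.5-fold apart, as were 19.6% of genes in that direction. That of ACS1 ran from -1.92 at a pseudocount of 0.1 to -0.42 with quantile normalization, where it was under 1.5-fold. With 4 libraries in 4 groups this difference between strains could not be tested.

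**Figure D4:**
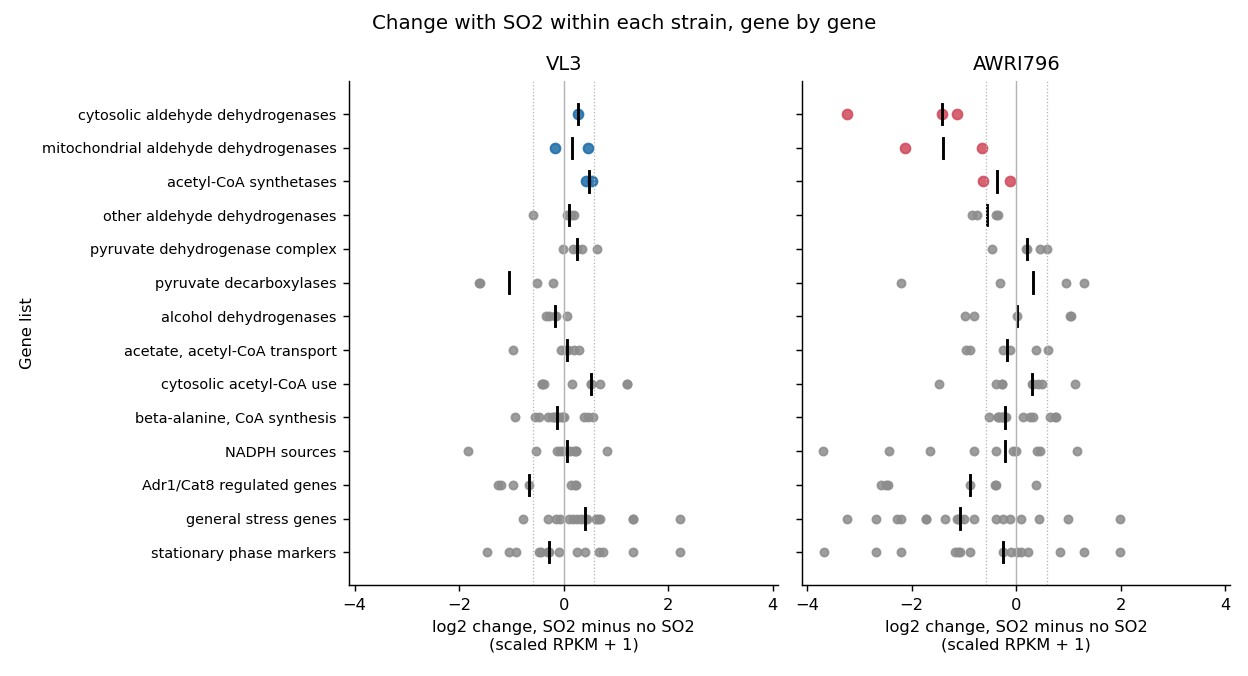
Log2 change from no SO2 to SO2 in VL3 (left) and AWRI796 (right) for each gene of 14 lists, with coloured points for the members, grey points for the other lists (ALD2 and ALD3 are drawn again among general stress genes), a black bar at each list's median and dotted lines at 1.5-fold. In AWRI796 the coloured points lie left of 0, down to -3.24, and in VL3 they lie between -0.17 and 0.55.

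Between the strains, limma set AWRI796 against VL3 over both SO2 levels in the same fit. The libraries of a strain differ in SO2, so its SE and p do not measure the spread between like cultures. ACS1 came closest to a call, at a log2 difference of 3.43 ± 0.51 higher in AWRI796 (SE, limma adjusted p = 0.0512). With VL3 levels under 1 the size of this difference depends on the pseudocount, from 1.94 at 5 to 4.57 at 0.1. Its p ranked 20 among 5092 genes, of which 17 (0.334%) were called. Without a trend in the variance the adjusted p was 0.0204, which is past the threshold, and over the alternatives it ran from 0.0204 to 0.561, the highest without a filter on low values. Both AWRI796 libraries lay above both VL3 libraries for ACS1 and ALD6, 2 of 5 members, and for 21.5% of genes. ALD6 differed by 0.96 ± 0.46 (limma adjusted p = 0.44), which came from the cultures without SO2, where the log2 difference was 1.81, against 0.12 with SO2. For ALD4 the log2 differences were 1.96 without SO2 and -0.65 with SO2. The genes flanking ACS1 had values in VL3: PEX22 stood at 20.4 and 28.4 there, and FLC2 at 17.6 and 10.3. These values do not show whether reads from VL3 match the ACS1 gene model used. Whether VL3 carries ACS1 in that form was not tested, so its low level there may not be one of expression alone.

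With SO2 in all cultures, the vineyard strain R008 was set against the 3 enological strains. R008 was above all 3 for ALD4, ALD6 and ACS1, 3 of the 5 members with a value in each strain, and for 20.1% of 5009 genes. ALD4 was at 71.5 in R008 and at 25.4 ± 7.19 in the enological strains (SD, n = 3 libraries of different strains), a log2 difference of 1.5 ± 0.39 (SE, limma adjusted p = 0.57, unadjusted p = 0.00305). No member was called, against 9 genes (0.18%) called and 158 (3.15%) with an unadjusted p under 0.05, ALD4 among these. The log2 difference was 0.30 ± 0.38 for ALD6, -0.11 ± 0.39 for ALD5, 1.07 ± 0.95 for ACS1 and -0.06 ± 0.51 for ACS2, each with a limma adjusted p that rounds to 1. The value for ACS1 rests on VL3: without that library it was 0.12. ALD3, which was left out for want of a VL3 value, was 389 in R008 against 71.5 and 111 in the 2 enological strains with a value.

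Genes that feed the branch differed in both directions. Pyruvate decarboxylase makes acetaldehyde. PDC1, known as its main gene, was at 320.0 without SO2 and 786 with SO2 in AWRI796, and at 1471 and 1033 in VL3. In R008 PDC1 was at 815, below PDC5 at 2502, and in EC1118 at 935, above PDC5 at 88.7. PDC5, the second isoform, was 1.93-fold higher in AWRI796 and 3.03-fold lower in VL3, while PDC6, a minor isoform, was lower in both, by 4.6-fold and 3.08-fold. PDC2, their activator, stayed within 1.5-fold in both strains. Of the 4 genes, 2 were at least 1.5-fold higher and 1 lower in AWRI796, and 2 were lower in VL3.

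Alcohol dehydrogenases, which reduce acetaldehyde to ethanol or reverse the step, went both ways in AWRI796. ADH1, the main fermentative gene, stood at 3332 without SO2 and 1909 with SO2 in AWRI796 and at 5113 and 4023 in VL3. SFA1, a bifunctional alcohol and formaldehyde dehydrogenase, was 1.99-fold lower in AWRI796, whereas ADH4 and ADH5 were 2.07-fold and 2.03-fold higher. ADH3, the mitochondrial form, differed by 1.02-fold. None of the 5 kept genes reached 1.5-fold in VL3, and ADH2 was too low to be kept. The list's median was -0.16 in VL3 and 0.02 in AWRI796, and without the scaling factors these became 0.01 and -0.05.

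The pyruvate dehydrogenase complex, which makes acetyl-CoA from pyruvate inside mitochondria, had a median log2 change of 0.22 in AWRI796 and 0.26 in VL3. PDB1 was 1.5-fold higher in AWRI796 and PDX1 1.56-fold higher in VL3, 1 of 5 genes in each. PDA1, the alpha subunit of its first enzyme, was at 205 without SO2 and 283 with SO2 in AWRI796, and at 242 and 239 in VL3. Other genes of the aldehyde dehydrogenase family had a median of -0.57 in AWRI796, where PUT2, of proline breakdown, was 1.8-fold lower and HFD1, a fatty aldehyde dehydrogenase, 1.67-fold lower. UGA2 and MSC7 were within 1.5-fold there, and all 4 were within it in VL3.

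The list named for cytosolic acetyl-CoA use held 9 genes, of which EEB1 and EHT1 encode ethyl ester synthases that act on medium-chain acyl-CoA and not on acetyl-CoA. Without this pair, a choice made after the values were seen, none of the 7 genes reached 1.5-fold in AWRI796, and 2 were higher and none lower in VL3. Their medians were 0.29 in AWRI796 and 0.52 in VL3, the same as with the pair. EEB1 was 2.79-fold lower in AWRI796, and EHT1 was 2.19-fold higher there and 2.32-fold higher in VL3, so with them 1 of 9 was higher and 1 lower in AWRI796 and 3 were higher in VL3. LYS20 and LYS21, the homocitrate synthases of lysine synthesis, were 2.33-fold and 1.62-fold higher in VL3. ERG13, of sterol synthesis, was 1.44-fold higher in VL3.

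Acetate and acetyl-CoA carriers were mostly low, with 6 of 10 genes kept. CAT2, a carnitine acetyltransferase, and FPS1, the glycerol channel through which acetic acid can enter, were 1.94-fold and 1.86-fold lower in AWRI796. JEN1, a lactate and pyruvate permease, was 1.97-fold lower in VL3 and ATO3 1.53-fold higher in AWRI796. A list of genes under Adr1 and Cat8, regulators that also act on ACS1, covered ethanol and acetate use and also fatty acid oxidation. Of its 16 genes, 7 were kept. Of these, 4 were at least 1.5-fold lower in each strain and none higher. They were POX1, FOX2 and POT1, of fatty acid oxidation, in both strains, by 5.64-fold, 6.01-fold and 5.47-fold in AWRI796, with MLS1 in AWRI796 (1.84-fold) and JEN1 in VL3. Without a filter on low values the median of that list was 0.22 in VL3, against -0.67 with it. The genes too low to be kept included ADH2, PCK1, SFC1, CTA1 and ADY2. In VL3 these stood 3.22-fold, 3.16-fold, 1.86-fold, 1.76-fold and 1.52-fold higher with SO2. CAT8 and SIP4, also not kept, were 1.37-fold and 1.3-fold lower there. In AWRI796 SFC1, SIP4 and CAT8 were 3.48-fold, 2.73-fold and 1.98-fold lower. At such low levels these folds have little meaning.

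ALD6 is also a source of NADPH, and the list of other sources held 10 genes. In AWRI796 4 were at least 1.5-fold lower and 1 higher, at a median of -0.22, and in VL3 1 was lower and 1 higher. GND2, of the pentose phosphate pathway, was 12.9-fold lower in AWRI796 and 3.54-fold lower in VL3. SOL4 was 5.44-fold and IDP3 3.15-fold lower in AWRI796, where MAE1, the malic enzyme, was 2.24-fold higher. ZWF1, which opens the pentose phosphate pathway, was 1.77-fold higher in VL3. Of 14 genes for beta-alanine, pantothenate and coenzyme A, to which ALD2 and ALD3 contribute, none was lower by 1.5-fold in AWRI796 and 3 were higher: SPE3 by 1.7-fold, PAN5 by 1.68-fold and SPE4 by 1.56-fold. In VL3 FEN2, a pantothenate transporter, was 1.92-fold lower, CAB3 was 1.47-fold lower and none reached 1.5-fold higher. The median of that list in VL3 was -0.12 and became 0.04 without the scaling factors. Over all genes compared the median log2 change was -0.01 in VL3 and 0.00 in AWRI796.

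Genes with profiles most like those of the members were found by the root mean square distance between log2 levels, each centred on the gene's own mean, over the 6 libraries and 4860 genes. For ALD6 they were TIS11, an mRNA-binding protein gene of the iron response, at 0.11 and IZH2 at 0.16. TIS11 stood at 622 in AWRI796 without SO2 and between 145 and 260.0 elsewhere. For ALD4 they were HSP104, the disaggregase gene, at 0.24 and ATG34 at 0.3. HSP104 stood at 715 in AWRI796 without SO2, 666 in R008 and 216 to 345 in the others, which matches the 2 high libraries of ALD4. For ALD5 they were SHU2 and HXT1, at 0.06 and 0.07, and for ACS2 TFG2 and SIS1, at 0.07 and 0.09. Those profiles were nearly flat, so closeness says little there. For ACS1 they were SEM1, a proteasome subunit gene, at 0.39 and YPR053C at 0.56, both low in VL3. SEM1 stood at 39.5 and 98.4 in VL3 and at 448 to 813 in the other 4 libraries.

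Since ALD2 and ALD3 lack VL3 values, their likeness was taken over 4 libraries and 4903 genes, a choice made after their values were seen. SIP18, a gene of desiccation tolerance, came closest to ALD3 at 0.19, with PMA2, a minor plasma membrane proton pump gene, at 0.23. SIP18 stood at 6587 in AWRI796 without SO2, 513 with SO2, 1759 in R008 and 343 in EC1118, the same order of libraries as ALD3. In VL3, where ALD3 has no value, SIP18 was at 660 without SO2 and 536 with SO2. For ALD2 the closest were SNA2 at 0.06 and YGR126W at 0.09. With 4 libraries many genes can lie close to any profile.

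**Figure D5:**
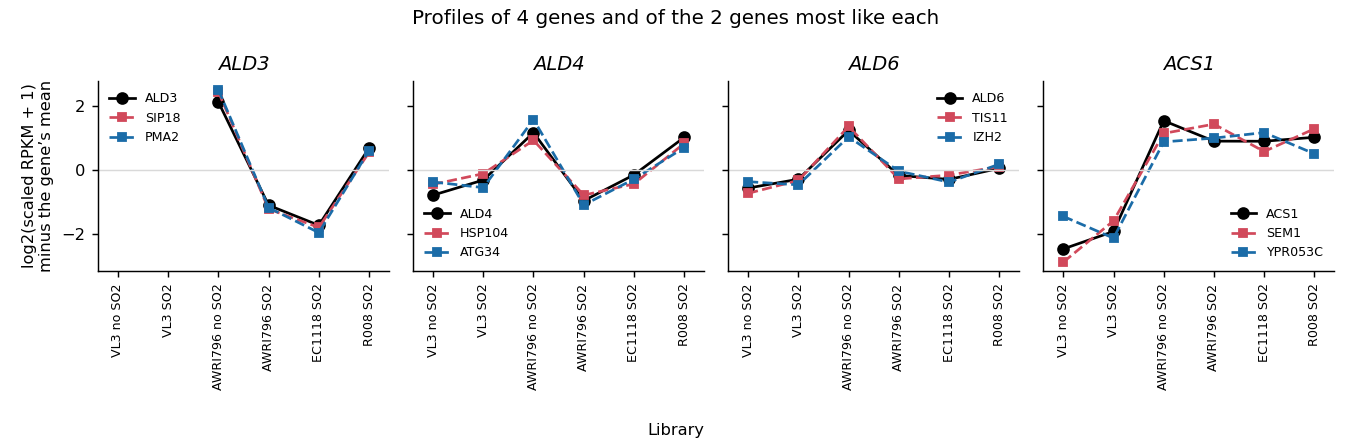
Log2 level minus the gene's own mean over the libraries shown, for ALD3, ALD4, ALD6 and ACS1 (black) and the 2 genes most like each (red and blue), 1 library per point. ALD3, ALD4 and ALD6 peak in AWRI796 without SO2 with their companions, and ACS1 and its companions are low in VL3.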

How the data were processed

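Total RNA was depleted of 18S and 26S rRNA and sequenced as SOLiD 4 whole transcriptome libraries, per the labels' protocols. The deposited values are RPKM per gene, per the file headers, whereas the sources used here do not name the aligner, counting method, strand use, genome build or gene models. Of 6611 rows, 2 shared a line with another row and 8 that repeated a systematic name were left out. Start and end equalled those of R64 for 5860 of 5869 genes found in both.

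Depth is unknown: at the best of many steps tried, 25.8% to 27.3% of low values came within 0.1 of whole reads, so reads were not recovered. Chance gives 20% for a step fixed beforehand and more for the best of many, so no excess over chance was shown. RPKM were divided by median-of-ratios factors from 4993 genes, and 5335 genes whose mean RPKM as deposited reached 5 were kept, all 7 members among them. limma 3.58.1 in R 4.3.3 was fitted to log2(scaled RPKM + 1) over all genes with values in the libraries compared. Settings were eBayes with trend, two-sided tests and Benjamini-Hochberg at 0.05. A trial on simulated data used large planted effects, independent noise and no strain differences, so it does not show how the fits perform here. SO2 and strain were fitted over 4 libraries with 1 residual degree of freedom, and R008 against the enological strains with 2, taking the lone R008 library to vary as these do. The pooled part had 6.44 and 8.54 degrees of freedom. Within a strain no test was possible. A fold of 1.5 was used to count differences.

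Genes with a near-identical copy (BLAST+ 2.17.0, 95% identity or more over 80% of the gene or more; 292 genes, no member) were left out of the search for like profiles. Of each of 14 lists, up to 5 genes with the widest change were named, with PDC1, ADH1 and PDA1, and for each member the 2 most like genes. Neighbours of ALD2, ALD3 and ACS1 were added by position after the values were seen. The members and lists were chosen with earlier results of these data known. Alternatives were pseudocounts of 0.1 and 5, no scaling or quantile normalization, no filter or a minimum mean of 20, 2-fold for counts, eBayes without trend, no strain term, and leaving out each enological library.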

Additional observations from a re-analysis of the deposited data

Results flagged for a closer look

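For 4 members the libraries with SO2 stood higher in VL3 and lower in AWRI796 than those without, each from 1 library per group, and the difference was not tested. The AWRI796 log2 change minus the VL3 log2 change was -2.61 for ALD4, -1.69 for ALD6, -1.19 for ACS1 (-0.42 with quantile normalization, where the VL3 change was -0.18) and -0.55 for ACS2. Opposite signs were also found for 46.0% of all genes, and the ACS2 change in AWRI796, -0.11, is close to 0.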

How the results depend on the processing

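Over 221 alternative values for single members, 210 kept their side of the threshold, and no called value changed sign. Part of this tally was fixed in advance, since a filter leaves a within-strain change and the difference between strains as they are. No member was called in the main limma fits, so those values could leave their side only by becoming called. In VL3 the count of members at least 1.5-fold higher, 0 in the report, was 1 at a pseudocount of 0.1 (ACS1) and 3 without the scaling factors (ALD4, ACS1 and ACS2), where the median of all genes in VL3 moved from -0.01 to 0.15. The count of members whose AWRI796 change lay at least 1.5-fold below that of VL3 was 5 without the scaling factors, against 3. It was 4 with quantile normalization, where ACS1 (-0.42) left and ALD5 (-0.61) and ACS2 (-0.93) entered, and 2 at a minimum mean of 20, where ACS1 has no value. In AWRI796 against VL3, 1 member was called higher by limma without a variance trend, against 0. With quantile normalization the ACS1 change in VL3 was -0.18, against 0.55. The 6 members lower in AWRI796 kept their direction without the scaling factors and with quantile normalization. A pseudocount cannot turn a direction and a filter leaves each change as it is, so those settings could not test it. Over all settings the AWRI796 change of ALD3 lay between -3.4 and -3.2 and that of ALD4 between -2.21 and -1.92. For ALD6 it lay between -1.58 and -1.4, and for ALD2 between -1.2 and -1.05. ACS1 fell short of 1.5-fold there at a pseudocount of 5 (-0.52), which leaves 5 members lower, as does a minimum mean of 20. At 2-fold 4 of the 7 were lower: ALD3, ALD4, ALD6 and ALD2. Leaving out each enological library kept the R008 difference of ALD4 between 1.26 and 1.66. Leaving out a library from the fit over VL3 and AWRI796 leaves no residual degree of freedom, so it was not run. Depth is unknown, so no counting error can be given for the VL3 levels of ACS1.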

Other observations

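Among 5009 genes with values throughout, 2 stood under 2 scaled RPKM in both VL3 libraries and above 10 in the other 4, levels chosen after the values were seen. They were ACS1 and YGL088W. YGL088W stood at 0.415 and 0.0 in VL3 without and with SO2, at 220.4 and 423 in AWRI796, at 452 in EC1118 and at 285 in R008. What the pair has in common was not tested.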
